A study of Mus musculus with 4 samples.

Results

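The genes described here are the natural killer (NK) cell receptor and cytotoxic granule genes of large intestinal regulatory T (Treg) cells. They were chosen by name alone: the killer cell lectin-like receptor (Klr) genes of subfamilies a to k, the granzyme (Gzm) genes, and *Prf1*, *Nkg7*, *Ctsw*, *Srgn*, *Gnptab*, *Fcer1g*, *Tyrobp* and *Hcst*. The rule found 48 of the 53379 genes in the table, of which 30 were Klr genes, 10 Gzm genes, 3 adaptors and 5 other granule genes. Setd2 writes the trimethyl mark on lysine 36 of histone H3, and the comparison asks how Treg cells of the large intestine differ in RNA without it. Control Treg cells came from Foxp3Cre-YFP Setd2f/+ mice, in which 1 allele of *Setd2* was floxed, and KO Treg cells from Foxp3Cre-YFP Setd2f/f mice, in which 2 were. Mice of both groups were adult (6 to 12 weeks) C57BL/6 littermates at steady state and carried the Foxp3-driven Cre, so deletion is limited to cells that have expressed Foxp3, and control Treg cells can lose 1 allele. Each group had 2 libraries of CD3+CD4+YFP+ cells sorted from the large intestine, and each library pooled cells of 2 to 3 mice. Errors are therefore the spread between pools.

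The values are FPKM, fragment counts scaled to transcript length and sequencing depth, which allow levels to be compared between genes. The depth of the libraries is unknown from these values, and control 2 listed 28426 genes at 0 compared with 33223 to 33957 in the other libraries. *Setd2* itself had an FPKM of 38.19 and 27.36 in control and 26.33 and 36.30 in KO (adjusted p = 0.927, limma), and the genotype of a library could not be checked with these whole-gene values. Of 8 markers of Treg and CD4 T cells, *Ctla4*, *Tnfrsf18*, *Il2ra*, *Ikzf2*, *Cd4* and *Cd3e* lay between 84.12 and 2310.35 in all libraries. In contrast, *Foxp3* lay between 2.62 and 5.61, and *Nrp1* had 9.79 and 9.93 in control and 15.36 and 12.50 in KO. Differences are KO minus control on the log2(FPKM + 1) scale from limma, fitted to the 7639 protein-coding genes whose group mean exceeded 5 FPKM in control or KO. Adding 1 understates the change of low genes. A gene was called at an unadjusted p below 0.05, the threshold of the study, and the p adjusted over all 7639 genes is given beside it. With 2 libraries against 2, permuting the libraries for 1 gene gives an exact p of 0.333 at the smallest, and the limma tests borrow their variance from all genes.

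The lectin-like receptors of the Klr families sit on NK cells and on some activated T cells, where they sense MHC class I molecules, stress ligands, cadherins or other lectins. Inhibitory members carry their own signalling motif, while activating members signal through small adaptors that span the membrane beside them. Cytotoxic lymphocytes store granzymes, which are serine proteases, with perforin on a serglycin scaffold in secretory lysosomes, and release them at the contact with a target cell. Treg cells of mucosal tissue also hold granzymes and Klrg1, which marks terminally differentiated effector Treg cells.

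Of the 48 members, 11 were expressed at a mean FPKM above 5 in either group, 6 were low with a mean of at least 1, 16 were below 1 and 15 were listed at 0 in all 4 libraries. The expressed members were the receptors *Klrg1* and *Klrc1*, the adaptors *Hcst*, *Tyrobp* and *Fcer1g*, the granzymes *Gzma*, *Gzmb* and *Gzmc*, and the granule proteins *Srgn*, *Nkg7* and *Ctsw*. In KO Treg cells 5 of these 11 were higher (*Klrc1*, *Gzma*, *Hcst*, *Nkg7* and *Gzmc*) and 2 were lower (*Ctsw* and *Klrg1*), and 4 did not pass. Over all genes tested, 8.61% were called higher, and 7.57% were called lower. After adjustment 2 members passed at 0.05, namely *Klrc1* and *Gzma*, beside 0.589% of all genes tested. The FPKM of the groups did not overlap for any of the 11 tested members, with KO above control for 8 and below for 3, where 47.1% of all genes tested had groups that did not overlap, in either direction. Fewer members were called higher without control 2 or KO 2, and fewer were called lower without KO 1. After adjustment, fewer members passed without control 1, KO 1 or KO 2. Calls over all genes tested were also fewer without control 2, KO 1 or KO 2, before and after adjustment. *Klrc1* entered the test only through its level in KO and therefore had to differ. Of the 10 members that passed the filter in both groups, 4 were called higher and 2 lower, and their median log2 difference was 0.46, compared with -0.0039 over all genes tested.

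**Figure D1:**
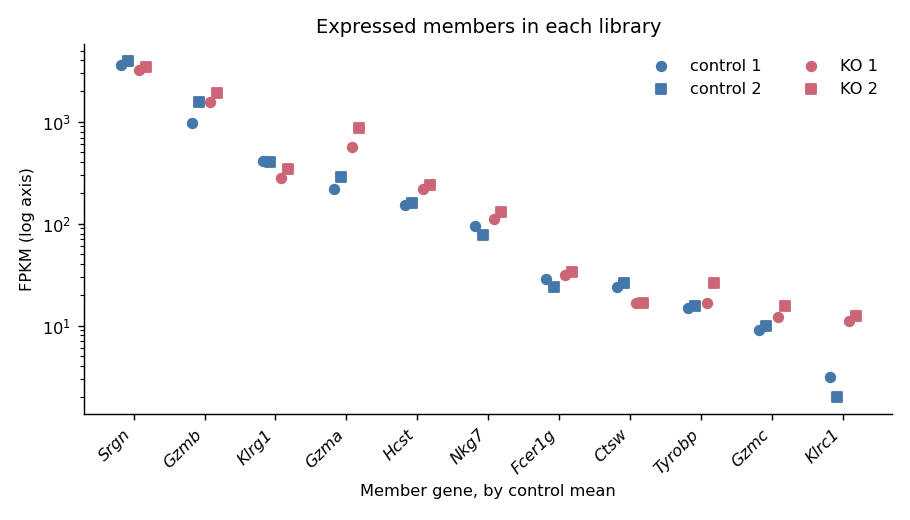
FPKM (log axis) of the 11 expressed members in each of the 4 libraries, ordered by control mean; circles are replicate 1, squares replicate 2, blue is control and red is KO. *Srgn* and *Gzmb* stand highest, and *Klrc1* and *Gzma* show the widest gap between the groups.

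The sequences before the start sites of 4 of the 5 genes called higher are shown because these genes moved in one direction. They are the 250 bases before the RefSeq start site on GRCm38.p6, written 5′ to 3′ on the strand of the gene. Capitals mark a Runx core (TGTGGT) or a T-box core (AGGTGT), read on either strand, and these motifs do not overlap each other in the windows shown. Runx and T-box factors regulate granzyme and perforin genes in cytotoxic T cells.
Klrc1, chr6:129678974-129679223, minus strand: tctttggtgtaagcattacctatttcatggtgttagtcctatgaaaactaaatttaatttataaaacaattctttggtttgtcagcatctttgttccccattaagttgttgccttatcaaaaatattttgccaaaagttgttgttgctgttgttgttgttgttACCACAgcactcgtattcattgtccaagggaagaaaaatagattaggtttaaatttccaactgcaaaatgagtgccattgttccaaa
Gzma, chr13:113100982-113101231, minus strand: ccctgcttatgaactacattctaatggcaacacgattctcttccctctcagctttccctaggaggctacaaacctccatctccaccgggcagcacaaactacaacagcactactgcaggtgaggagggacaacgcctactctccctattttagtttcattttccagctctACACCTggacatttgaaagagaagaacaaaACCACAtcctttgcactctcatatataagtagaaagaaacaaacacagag
Gzmc, chr14:56234658-56234907, minus strand: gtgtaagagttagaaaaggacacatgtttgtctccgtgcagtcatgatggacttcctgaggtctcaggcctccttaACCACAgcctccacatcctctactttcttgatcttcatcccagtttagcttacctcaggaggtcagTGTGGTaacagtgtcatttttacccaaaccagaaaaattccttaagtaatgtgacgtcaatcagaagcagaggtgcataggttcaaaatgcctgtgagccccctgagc
Hcst, chr7:30419855-30420104, minus strand: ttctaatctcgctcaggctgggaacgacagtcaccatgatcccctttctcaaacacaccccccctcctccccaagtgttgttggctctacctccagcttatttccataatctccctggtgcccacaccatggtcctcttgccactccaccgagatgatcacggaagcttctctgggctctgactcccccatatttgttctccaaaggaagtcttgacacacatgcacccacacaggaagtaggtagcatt
The window of *Klrc1* held 1 Runx core and that of *Gzmc* 2, each with no T-box core, while that of *Gzma* held 1 of each and that of *Hcst* neither. The window of *Nkg7* (chr7:43436888-43437137, plus strand), not printed because it reaches into the GENCODE transcript, held 1 of each. Among the 17 expressed or low members, 14 had a window in the RefSeq table, and *Klrg1*, *Ctsw* and *Tyrobp* had none. A Runx core stood in the windows of 8 members (*Klrc1*, *Klrk1*, *Gzma*, *Gzmb*, *Gzmc*, *Prf1*, *Nkg7* and *Srgn*) and a T-box core in those of 5 (*Gzma*, *Gzmk*, *Klrb1*, *Prf1* and *Nkg7*). Of all 32851 windows of this length in the table, 14.0% held a Runx core and 11.8% a T-box core. A match of 6 letters describes the sequence only, and *Gzmb*, *Prf1* and *Srgn*, which were not called, held a Runx core as well. The motifs were chosen with the values of the genes known.

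*Klrg1*, an inhibitory receptor for cadherins, was by far the most abundant Klr gene, and it was lower in KO Treg cells. Its FPKM was 410.53 and 403.13 in control 1 and 2, and 281.63 and 344.31 in KO 1 and 2, that is 407 ± 5.23 in control and 313 ± 44.3 in KO (SD, n = 2 each). Both KO libraries were below both control libraries, and KO 1 was the lowest. The log2 difference was -0.38 (standard error 0.13, adjusted p = 0.221, limma), and without KO 1 it was -0.24 and no longer called. In these pooled cells, fewer *Klrg1*-expressing cells and less *Klrg1* RNA per cell cannot be told apart, which holds for each member below. *Klrg1* (ENSMUSG00000030114) lies at chr6:122270596-122282882 on the minus strand of GRCm38.

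*Klrc1*, which encodes NKG2A, the inhibitory receptor for Qa-1 (*H2-T23*), showed the largest difference of the 11 tested members. Its FPKM was 3.11 and 1.97 in control 1 and 2, and 11.21 and 12.30 in KO 1 and 2. Both KO libraries lay well above both control libraries, with means of 2.54 ± 0.806 in control and 11.8 ± 0.771 in KO (SD, n = 2 each). On the log2 scale the difference was 1.87 (standard error 0.24, adjusted p = 0.0326, limma), and the ratio of the mean FPKM was 4.63. KO minus control was 2.20 with a pseudocount of 0.1 and 1.16 with 5, and without 1 library it lay between 1.63 and 2.10, called each time. The adjusted p over the other settings (limma) lay between 0.00585 and 0.319. The lowest of these came from the crossed pairing described below, which was chosen after seeing the data. *Klrc1* (ENSMUSG00000030167) lies at chr6:129666015-129678973 on the minus strand.

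*Klrc1* shares sequence with *Klrc2*, which encodes the activating NKG2C, at 93.43% identity over 85.89% of the transcript. *Klrc2* had at most 0.37 FPKM, and *Klrc3*, 94.49% identical over 20.11% of the *Klrc1* transcript, was listed at 0, so how reads were shared among the 3 genes is uncertain. *Klrd1* encodes CD94, the partner with which NKG2A forms its receptor. *Klrd1* remained below 1, at 0.25 and 0.63 in control and 0.93 and 0.57 in KO, and the groups overlapped. *Klrc1* was therefore 12.1 and 21.6 times *Klrd1* in KO 1 and KO 2, and 12.4 and 3.13 times in control 1 and control 2. The Qa-1 gene *H2-T23* itself had an FPKM of 195.61 and 221.06 in control and 182.68 and 198.91 in KO (log2 difference -0.12, adjusted p = 0.647, limma).

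The ratio of the inhibitory receptors *Klrg1* and *Klrc1* did not overlap between the groups and was not tested. *Klrg1* was 132 and 205 times *Klrc1* in control 1 and control 2, and 25.1 and 27.99 times in KO 1 and KO 2. *Klrg1* made up 97.6% of the summed Klr FPKM in each control library, 92.4% in KO 1 and 93.4% in KO 2. The other 29 Klr genes together summed to 10.04 and 10.05 in control and to 23.27 and 24.26 in KO. Most of that increase in the sum was *Klrc1*.

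Of the low receptors, *Klrk1* and *Klrb1* were called higher in KO when all 10424 protein-coding genes with a mean FPKM of at least 1 were fitted, and *Klrb1f* was not. These are 2 of the 6 low members, and none was called lower, where 7.94% of all genes in that fit were called higher. *Klrk1* encodes NKG2D, the activating receptor for stress ligands of the RAE-1 and H60 families. Its FPKM was 1.18 and 0.54 in control and 2.71 and 3.57 in KO (log2 difference 1.17, standard error 0.29, adjusted p = 0.146, limma). *Klrb1*, of the NKR-P1 family, had 0.13 and 0.50 in control and 2.26 and 1.67 in KO (log2 difference 1.18, standard error 0.30, adjusted p = 0.154, limma). Both genes passed even the lower filter through KO only, neither passed after adjustment, and their levels were far below those of *Klrg1*. *Klrb1f* had 2.75 and 3.87 in control and 2.75 and 3.37 in KO (log2 difference -0.08, 95% interval -0.66 to 0.50), with groups that overlapped. The *Klrb1* transcript is 79.56% identical to that of *Klrb1f* over 78.74% of its length, so their reads may be shared in part.

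**Figure D2:**
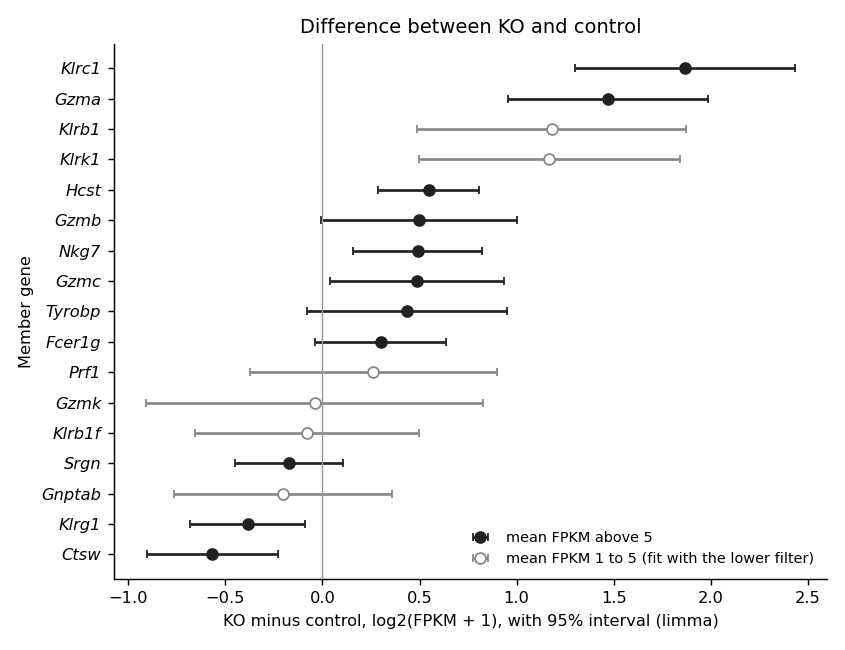
KO minus control on the log2(FPKM + 1) scale with 95% intervals from limma; filled points are the 11 members with a mean FPKM above 5, open points the 6 low members from the fit with the lower filter. *Klrc1* and *Gzma* are farthest to the right, and *Ctsw* and *Klrg1* are the points on the left whose intervals do not reach 0.

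All 30 Klr genes lie on chromosome 6, and most of them were at or near 0. The 14 Klra genes encode the Ly49 receptors of mouse NK cells. Of these, 8 were listed at 0 in all libraries and the others did not exceed 0.87. *Klra6* was above 0 only in control 2, at 0.01, and counts below as not at 0. Control 2 was the library with the fewest genes at 0. Of the 19 Klr genes not at 0 in all libraries, 6 had every KO value above every control value and 2 had every KO value below, where 20.2% and 16.6% of all protein-coding genes not at 0 did so. The 6 genes from *Klrk1* to *Klri2* (chr6:129610323-129740484) held 4 of these 6: *Klrk1*, *Klrc2*, *Klrc1* and *Klri2*. Of these, *Klrc2* is 93.43% identical to *Klrc1* over 85.89% of the *Klrc1* transcript. Its values may therefore hold reads of *Klrc1*, and it need not count as a separate gene. *Klri2* had 0.06 and 0.02 in control and 0.33 and 0.37 in KO, and *Klrc2* 0.08 and 0.02 in control and 0.27 to 0.37 in KO. Between them, *Klrc3* was listed at 0 and *Klri1* was listed above 0 only in KO 1, at 0.15. *Klrb1b*, a receptor of the NKR-P1 family, went the other way, at 0.69 and 0.56 in control and 0.43 and 0.44 in KO. With no filter on FPKM, *Klrk1*, *Klrc2*, *Klrc1* and *Klri2* were called higher and none passed after adjustment, where 6.61% of all genes in that fit were called higher. This stretch was picked after its values were seen.

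**Figure D3:**
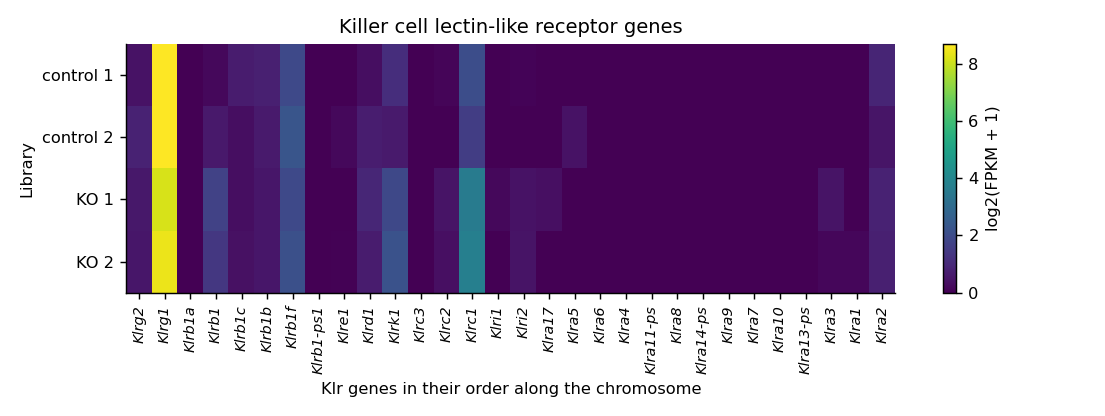
log2(FPKM + 1), by colour, of the 30 Klr genes in their order along chromosome 6 (columns) in the 4 libraries (rows). *Klrg1* is bright in every library, *Klrc1* brighter in the KO rows than in the control rows, and the Klra genes dark throughout.

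The adaptors of activating receptors were all expressed, and *Hcst* was called higher in KO. *Hcst* encodes DAP10, which couples NKG2D to phosphoinositide 3-kinase. Its FPKM was 151.29 and 161.13 in control 1 and 2, and 219.34 and 238.09 in KO 1 and 2, and every KO value was above every control value. The log2 difference was 0.55 (standard error 0.11, adjusted p = 0.0821, limma), and it was called with any 1 library left out. *Hcst* was 66.7 to 298 times as abundant as *Klrk1*, the receptor it serves, in the 4 libraries. *Hcst* (ENSMUSG00000064109) lies at chr7:30417712-30419854 on the minus strand.

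*Tyrobp* encodes DAP12, which signals for activating receptors of NK and myeloid cells through an ITAM. It had 14.79 and 15.40 in control and 16.50 and 26.03 in KO, and the 2 KO libraries differed more from each other than KO 1 did from control. It was not called (log2 difference 0.43, 95% interval -0.08 to 0.95, adjusted p = 0.386, limma), and without KO 1 and without KO 2 the difference was 0.75, which was called, and 0.12. *Fcer1g*, the Fc receptor gamma chain, had 28.50 and 24.12 in control and 31.53 and 33.50 in KO. It was not called either (log2 difference 0.30, 95% interval -0.04 to 0.64, adjusted p = 0.364, limma), but it was called without control 1, at 0.42. Both *Tyrobp* and *Fcer1g* were also called with the crossed pairing described below, which was chosen after seeing the data. *Tyrobp* (ENSMUSG00000030579, chr7:30413760-30417585, plus strand) ends 126 bases from the end of *Hcst*, and *Fcer1g* (ENSMUSG00000058715) lies at chr1:171229572-171234365 on the minus strand. Both are also strongly expressed by myeloid cells, whose 12 listed markers summed to 319.69 and 286.04 in control and 323.54 and 354.00 in KO. None of the 8 myeloid markers tested was called. Every KO value was above every control value for *Adgre1*, *C1qc*, *Cd14*, *Xcr1*, *Itgam* and *Siglech*, where 20.2% of all protein-coding genes not at 0 did so. *Cd14* had 32.40 and 36.83 in control and 40.20 and 41.96 in KO. The groups overlapped for *C1qa*, *C1qb*, *Cd68*, *Csf1r*, *Fcgr1* and *Lyz2*, the most abundant of the list. The part of myeloid cells in the values of *Tyrobp* and *Fcer1g* was not tested.

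Among the granzymes, *Gzma* was higher in KO, and *Gzmb*, the most abundant, did not pass. *Gzma* encodes a tryptase-like protease. Its FPKM was 218.91 and 290.35 in control 1 and 2, and 563.13 and 872.34 in KO 1 and 2, or 255 ± 50.5 in control and 718 ± 219 in KO (SD, n = 2 each). The KO libraries did not overlap the control libraries, and KO 2 was the highest. On the log2 scale the difference was 1.47 (standard error 0.22, adjusted p = 0.0475, limma), and it was 1.16 to 1.79 and called with any 1 library left out. The adjusted p over the other settings lay between 0.00498 and 0.321. Among 21865 protein-coding genes *Gzma* ranked 527 and 385 by FPKM in control and 183 and 108 in KO. *Gzma* (ENSMUSG00000023132) lies at chr13:113093825-113100981 on the minus strand.

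*Gzmb* encodes a protease that cleaves after aspartate and activates caspases. Its FPKM was 979.27 and 1547.86 in control 1 and 2, and 1571.83 and 1926.00 in KO 1 and 2. The lowest KO value was just above the higher control value, and control 1 stood below the other 3 libraries. KO minus control was 0.50 (95% interval -0.005 to 1.003, adjusted p = 0.313, limma). It was 0.17 without control 1, while *Gzmb* was called without control 2 (0.83) and without KO 1 (0.65). *Gzmb* (ENSMUSG00000015437) lies at chr14:56258838-56262260 on the minus strand.

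*Gzmc*, a neighbour of *Gzmb* in the same granzyme cluster, had 9.08 and 9.98 in control and 12.03 and 15.72 in KO. It was called higher (log2 difference 0.49, standard error 0.19, adjusted p = 0.275, limma), with no overlap. The call was lost without control 1 (0.43), without control 2 (0.55) and without KO 2 (0.31). The *Gzmc* transcript (ENSMUSG00000079186, chr14:56231441-56234656, minus strand) is 81.09% identical to that of *Gzmb* over 75.73% of its length. *Gzmb* was 108 to 155 times as abundant as *Gzmc* in the 4 libraries, and how the reads were divided between them was not tested.

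*Gzma* and *Gzmb* together made up 99.1% to 99.4% of the summed granzyme FPKM. *Gzma* alone made up 18.1% and 15.7% in control and 26.2% and 31.0% in KO. The ratio of *Gzma* to *Gzmb* was 0.224 and 0.188 in control and 0.358 and 0.453 in KO, with no overlap. The sum over the 10 granzyme genes was 1208.56 and 1850.14 in control and 2148.11 and 2816.43 in KO. *Gzmk* was low, at 0.83 and 1.86 in control and 0.68 and 1.95 in KO (log2 difference -0.04, 95% interval -0.91 to 0.83, limma), and it overlaps *Esm1* on the opposite strand. *Gzmm* reached 0.47 at most, and 4 of the 10 granzyme genes were listed at 0.

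The pore-forming protein perforin, by which granzymes enter a target cell, was encoded by a gene of low level. *Prf1* had 2.02 and 1.19 in control and 2.13 and 2.04 in KO, with KO just above control and no call (log2 difference 0.26, 95% interval -0.37 to 0.90, adjusted p = 0.693, limma, lower filter). *Gzmb* was 485 to 1301 times as abundant as *Prf1*. *Gnptab*, which encodes a subunit of the enzyme that tags lysosomal proteins with mannose 6-phosphate, had 2.59 and 2.28 in control and 2.11 and 1.86 in KO. It was not called (log2 difference -0.20, 95% interval -0.76 to 0.36, limma, lower filter).

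Of the granule proteins, *Nkg7* was higher, *Ctsw* was lower and *Srgn* did not pass. *Nkg7* encodes a membrane protein of cytotoxic granules that is needed for their release. Its FPKM was 94.40 and 77.44 in control 1 and 2, and 111.72 and 129.98 in KO 1 and 2, with no overlap. The log2 difference was 0.49 (standard error 0.14, adjusted p = 0.177, limma), and the call was lost without control 2 (0.35) and without KO 2 (0.38). *Nkg7* (ENSMUSG00000004612) lies at chr7:43437073-43438249 on the plus strand.

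*Ctsw* encodes cathepsin W, a cysteine protease found in NK cells and cytotoxic T cells. It had 23.90 and 26.22 in control and 16.48 and 16.68 in KO, and the replicates lay close together within each group. On the log2 scale the difference was -0.57 (standard error 0.14, adjusted p = 0.134, limma), and it was called with any 1 library left out. *Ctsw* (ENSMUSG00000024910, chr19:5465043-5468507, minus strand) overlaps *Fibp* on the opposite strand, which reached 45.12, and RSEM was run with default parameters, which do not use strand, so reads of *Fibp* may be included.

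*Srgn* encodes serglycin, the proteoglycan core that holds granzymes in the granule. It was the most abundant member, with 3585.95 and 3968.34 in control and 3240.85 and 3452.38 in KO, and ranked between 18 and 23 among protein-coding genes. The groups did not overlap, but the log2 difference of -0.17 was not called (95% interval -0.45 to 0.10, adjusted p = 0.518, limma). *Srgn* (ENSMUSG00000020077) lies at chr10:62493833-62527451 on the minus strand.

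Of the 5 serpins listed as granzyme inhibitors, 4 could be tested, and these 4 were called higher in KO. Their median log2 difference was 0.62, and 8.61% of all genes tested were called higher. Whether each of these serpins inhibits a granzyme was not examined. *Serpinb9*, which inhibits granzyme B, had 60.15 and 52.23 in control and 86.19 and 116.56 in KO (log2 difference 0.83, adjusted p = 0.0821, limma). *Serpina3g* had 74.10 and 78.09 in control and 167.17 and 160.59 in KO (1.10, adjusted p = 0.0109, limma). *Serpinb6a* (0.39, adjusted p = 0.211, limma) and *Serpinb6b* (0.42, adjusted p = 0.262, limma) were higher by less. *Serpinb9b* was below 1. Without control 2, and without KO 2, the number of these serpins called was 2.

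Of the genes of granule biogenesis and exocytosis, 21 of 24 listed were tested, and 2 were higher, 4 were lower and 15 were not called, beside 8.61% higher and 7.57% lower over all genes tested, with a median log2 difference of 0.02. *Lamp1*, the lysosomal membrane protein that appears at the surface after granules are released, had 69.87 and 80.32 in control and 34.45 and 32.70 in KO. Its log2 difference was -1.14 (standard error 0.13, adjusted p = 0.0201, limma), the only one of the list with an adjusted p below 0.05, whereas its relative *Lamp2* had 33.94 and 36.65 in control and 29.40 and 42.98 in KO. *Stx11*, a syntaxin of granule fusion, and *Calr*, a chaperone also held in granules, were lower as well (each -0.43; adjusted p = 0.136 and adjusted p = 0.177, limma). *Vamp8*, a fusion protein of granules, was higher (0.39, adjusted p = 0.147, limma), as was *Ctsc* (0.42, adjusted p = 0.162, limma), which encodes the protease that activates pro-granzymes. *Rab27a*, *Unc13d* and *Stxbp2*, of the docking and priming machinery, were not called, with log2 differences of 0.33, 0.19 and -0.32. The list had 4 genes called higher without control 2, and 1 higher and 2 lower without KO 2.

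Of the molecules that carry signals from these receptors, 2 of 16 tested of 20 listed were higher, none was lower and 14 were not called, beside 8.61% higher and 7.57% lower over all genes tested, with a median log2 difference of 0.15. They were the scaffolds *Lat* (0.29, adjusted p = 0.252, limma) and *Lcp2* (0.28, adjusted p = 0.292, limma), which also serve the T cell receptor. *Syk*, the kinase that ITAM adaptors recruit in NK and myeloid cells, stayed at 0.36 to 0.76, while *Zap70* had 221.29 to 314.32. The number called higher was 0 with no trend in the empirical Bayes step, 1 with all gene types, 0 without KO 1 or without KO 2, 1 without control 2 and 4 without control 1.

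Of the transcription factors that act in cytotoxic lymphocytes, none of 11 tested of 14 listed was higher and 2 were lower, beside 8.61% and 7.57% over all genes tested, with a median log2 difference of -0.11. *Id2*, an inhibitor of E proteins that NK cells and effector T cells need, had 1376.13 and 1355.07 in control and 847.00 and 881.01 in KO (log2 difference -0.66, adjusted p = 0.0511, limma). *Tox*, a chromatin-binding factor, was lower as well (-0.36, adjusted p = 0.205, limma). *Runx3*, which drives cytotoxic genes in CD8 T cells, had 26.64 and 34.68 in control and 37.61 and 38.15 in KO and was not called (0.31, 95% interval -0.06 to 0.68, limma). *Tbx21* had 3.64 and 4.32 in control and 4.15 and 2.13 in KO, and *Eomes* did not exceed 0.06. Without control 2, 1 gene of the list was called higher.

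The ligands of the receptors were mostly low in these cells. Of 19 listed, 5 were tested and none was called by limma at an unadjusted p below 0.05 or after adjustment. The shares over all genes tested were 8.61% higher and 7.57% lower. *Clec2d*, whose product is bound by an inhibitory NKR-P1 receptor, had 7.63 and 5.04 in control and 8.28 and 11.21 in KO (log2 difference 0.56, 95% interval -0.03 to 1.15, adjusted p = 0.328, limma). The classical class I genes *H2-K1* and *H2-D1* were between 4101.5 and 7085.14 with groups that overlapped, and *Cdh1*, the E-cadherin that Klrg1 binds, did not exceed 0.49. The number called higher was 1 with a mean FPKM of at least 1, where 7.94% of all genes in that fit were called higher. It rose as well without control 1 or without KO 1.

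Of the other genes of cytotoxic lymphocytes, 11 of 18 listed were tested, and 2 were higher, 1 was lower and 8 were not called, beside 8.61% higher and 7.57% lower over all genes tested, with a median log2 difference of -0.03. *Fcgr3*, the low-affinity IgG receptor that pairs with the Fc receptor gamma chain, had 12.52 and 8.98 in control and 16.02 and 20.59 in KO (0.72, adjusted p = 0.180, limma), and it too is expressed by myeloid cells. *Cd226*, an activating receptor, was higher (0.38, adjusted p = 0.242, limma). *Cd160*, a receptor on NK and T cells, entered the test only through its level in control and therefore had to differ, at 6.56 and 4.85 in control and 3.72 and 3.07 in KO (-0.60, adjusted p = 0.302, limma). The call of *Cd160* was lost with a pseudocount of 0.1, with no filter and with all gene types. Leaving out 1 library took the number called higher to 0 without KO 2 and to 1 without control 2 or KO 1, and the number called lower to 0 without control 1, KO 1 or KO 2 and to 2 without control 2. *Ncr1*, an activating receptor that defines NK cells, did not exceed 0.01.

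The defining markers of NK cells and type 1 innate lymphoid cells were at or near 0 in every library. The 5 listed genes (*Ncr1*, *Eomes*, *Klrb1c*, *Klre1* and *Klra8*) summed to 0.65 and 0.44 in control and to 0.27 and 0.34 in KO. *Klra8* was listed at 0, and 3 of the 5 are themselves members. The CD8 T cell genes *Cd8a* and *Cd8b1* summed to 2.96 and 2.22 in control and 2.69 and 2.40 in KO. The 4 gamma-delta T cell genes, none of which was in the fit, summed to 9.08 and 7.59 in control and 13.41 and 15.69 in KO. Most of this was *Tcrg-C1* (6.84 and 6.79 in control, 10.96 and 12.24 in KO), and *Tcrg-C2* was higher in KO as well (0.37 and 0.45 in control, 1.60 and 1.07 in KO). The groups overlapped for *Tcrg-C4*, at 0.77 and 0.15 in control and 0.61 and 1.71 in KO. They also overlapped for the delta constant gene *Trdc*, which defines these cells, at 1.10 and 0.20 in control and 0.24 and 0.67 in KO. The part of gamma-delta T cells in the difference of *Klrc1*, *Klrk1* and *Gzma* was not tested. The 8 mast cell markers summed to 16.64 and 19.27 in control and 12.41 and 12.53 in KO, nearly all of it *Kit*, which was called lower, and *Mcpt2*, *Mcpt4* and *Tpsb2* were listed at 0. The neutrophil list did not exceed 0.66. B and plasma cell markers, mostly *Jchain*, summed to 122.90 and 168.69 in control and 120.83 and 175.39 in KO. Epithelial markers summed to 42.80 and 42.15 in control and 40.15 and 36.12 in KO, and 1 of the 2 tested was called lower. Stromal and endothelial markers, mostly *Pecam1*, summed to 37.01 and 40.25 in control and 54.88 and 47.86 in KO, and the 1 tested was called higher. The part of these cells in the differences of the members was not tested. Among the 8 Treg and CD4 T cell markers 7 were tested, and 2 were called higher and 1 lower. These counts stand beside 8.61% higher and 7.57% lower over all genes tested.

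**Figure D4:**
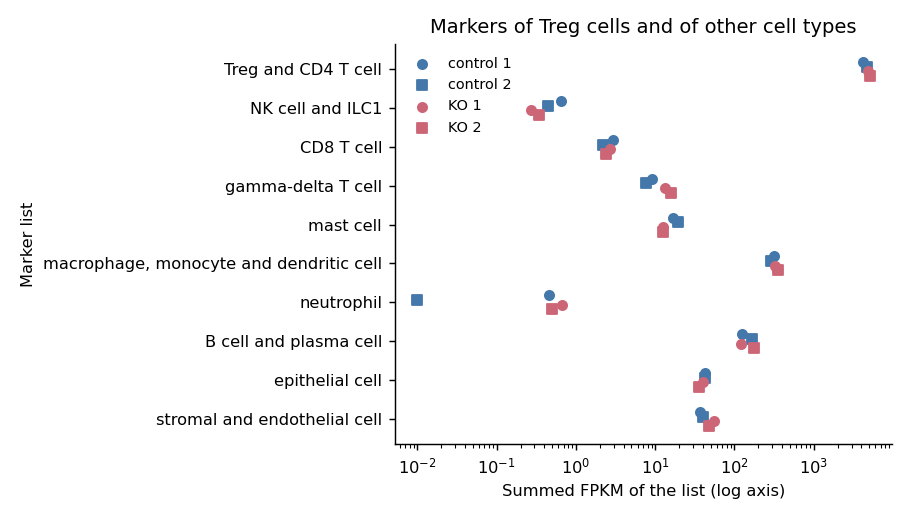
Summed FPKM (log axis) of each list of marker genes in each library; circles are replicate 1, squares replicate 2, blue is control and red is KO. Treg and CD4 T cell markers stand highest, and the NK cell and type 1 innate lymphoid cell markers stay below 1 in every library.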

How the data were processed

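Treg cells of the large intestine were analysed by RNA-seq in 2 control and 2 KO libraries. Paired reads of 150 bp from poly(A) RNA were mapped to GRCm38 with STAR 2.5 and quantified with RSEM 1.2. The authors deposited FPKM for 53379 genes; the 4 columns follow almost the same distribution, a step the methods do not name. These values keep no counts, so no counting interval was computed and the count test of the methods could not be used.

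Protein-coding genes (GENCODE M21) whose mean FPKM exceeded 5 in either group were fitted with limma 3.58.1 in R 4.3.3 on log2(FPKM + 1), with a trend in the empirical Bayes step and no covariate. Adjustment was by Benjamini-Hochberg. The fit was tested on simulated data. Replicates share only a number: the labels and methods do not say which pools were collected together. Shared transcript sequence was found with blastn 2.17.0. Each member was named by the rule, and up to 3 genes in each direction of each pathway list by smallest p; other list genes were chosen after seeing their values. The members and lists were chosen with earlier results of these data known. Alternatives were other scalings, pseudocounts of 0.1 and 5, other filters, all gene types, no trend, blocks, and each library left out. Splenic and chromatin libraries were not analysed here.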

Additional observations from a re-analysis of the deposited data

How the results depend on the processing

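All 11 tested members kept their direction under every alternative run. Of 165 values of single members under alternatives, 149 stayed on their side of the threshold, 8 gained a call and 8 lost one. The number of members called higher (5) was 8 with no filter on FPKM, where 33 members were tested, and 8 with the crossed pairing. With 1 library left out it ranged from 3 to 7, and the number called lower (2) from 1 to 2. The lone library of a group was then assumed to vary like the other group. The number passing after adjustment (2) was 1 with median-centred log2 values, 1 with a mean FPKM of at least 1, 0 with no filter, 0 with all gene types, 0 without a trend and 5 with the crossed pairing, and it ranged from 0 to 2 with 1 library left out. No filter, the lower filter and all gene types test more genes, and the cause of the changes was not tested. Without control 2, KO 1 or KO 2, fewer of all genes tested were called as well. The counts of members and of lists in those fits are to be read beside this.

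The deviations of same-numbered libraries correlated at -0.305 over 7639 genes. With 2 libraries in each group, this correlation cannot tell whether pools were collected in numbered pairs. Under the replicate block, 5 members were higher, 2 lower and 2 passed after adjustment; over all genes 419 were higher and 377 lower, compared with 658 and 578 without it. *Gzmb* gained and *Gzmc* lost the call. Of the lists, the block left 0 of 2 receptor signalling genes, 2 of 4 granzyme inhibitors and 1 of 2 other cytotoxic lymphocyte genes called higher, and 1 of 2 transcription factors and 0 of 1 other cytotoxic lymphocyte genes called lower. The crossed pairing, chosen after seeing the data, called 1008 and 983 genes. Over all genes, the number passing after adjustment (24 higher and 21 lower) was 17 and 15 with median centring, 16 and 11 with the lower filter, 0 and 0 with no filter (1170 and 776 at an unadjusted p below 0.05), 5 and 8 with all gene types and 1 and 2 without a trend.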
